A study of Mus musculus with 2 samples.

Results

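Genes of mucosal defence and epithelial secretion that were nearly without reads in control liver, together with the nerve gene Gldn, were followed in a liver library labelled as an Hnrnpk knockout. The set holds 8 genes of the 21936 in the deposited table: Dmbt1, Gldn, Tff3, Tff2, Sftpd, Gkn3, Vil1 and Muc1. They were picked by symbol, because their read counts were low in the control and higher in the knockout, so their ratios below are a description of these libraries and carry no test. Liver RNA was sequenced from mice in 2 libraries, 1 per genotype. The control carried hnRNPK flox/flox, and the knockout carried hnRNPK flox/flox with Alb-Cre, in which Cre recombinase is driven by the albumin promoter. Which cell types of the liver it acted in was not measured in these bulk libraries. Both groups carry the floxed allele, and no Cre-only library was analysed here. The series title calls the groups wild type and hnRNPK-MKO, and neither sex nor age, nor how many mice gave each RNA, is stated in the labels.

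Mucosal surfaces are covered by a layer of mucins, trefoil peptides and lectins that bind microbes and protect and repair the epithelium beneath. In liver, such genes are known mainly from the bile ducts and the gall bladder, whose lining cells (cholangiocytes) carry microvilli and secrete mucus, and hepatocytes make little of them. Gldn stands outside this group: its product, gliomedin, is a secreted ligand that gathers sodium channels at the nodes of Ranvier in peripheral nerve.

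RefSeq promoter sequences were found for 4 of the 8 genes, and they are shown because these genes were higher together in the same library. Each line gives the 250 bases before the annotated start on the gene's own strand, 5′ to 3′, in GRCm38.p6 coordinates. The Gldn window lies at chr9:54286236-54286485 on the plus strand, that of Muc1 at chr3:89228806-89229055 on the plus strand, that of Vil1 at chr1:74409134-74409383 on the plus strand and that of Gkn3 at chr6:87388936-87389185 on the minus strand. Capitals mark matches, on either strand, to the TATA box TATAAA, the GC box GGGCGG, the C-rich element CCCTCC and the forkhead motif TGTTTAC; neighbouring matches may overlap.
Gldn: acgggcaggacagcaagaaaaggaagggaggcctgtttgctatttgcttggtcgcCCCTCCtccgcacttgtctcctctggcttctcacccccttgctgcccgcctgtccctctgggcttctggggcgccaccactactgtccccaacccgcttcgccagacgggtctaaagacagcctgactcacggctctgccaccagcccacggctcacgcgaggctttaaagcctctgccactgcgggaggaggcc
Muc1: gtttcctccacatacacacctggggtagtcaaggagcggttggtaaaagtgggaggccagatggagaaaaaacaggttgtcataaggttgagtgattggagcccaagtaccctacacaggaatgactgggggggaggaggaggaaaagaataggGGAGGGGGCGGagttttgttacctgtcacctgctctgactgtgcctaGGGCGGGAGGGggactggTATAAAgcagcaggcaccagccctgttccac
Vil1: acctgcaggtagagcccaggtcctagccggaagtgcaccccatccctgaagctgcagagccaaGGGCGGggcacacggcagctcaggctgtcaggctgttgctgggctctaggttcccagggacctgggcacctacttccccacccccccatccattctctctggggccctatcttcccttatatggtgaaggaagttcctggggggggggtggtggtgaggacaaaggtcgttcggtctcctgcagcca
Gkn3: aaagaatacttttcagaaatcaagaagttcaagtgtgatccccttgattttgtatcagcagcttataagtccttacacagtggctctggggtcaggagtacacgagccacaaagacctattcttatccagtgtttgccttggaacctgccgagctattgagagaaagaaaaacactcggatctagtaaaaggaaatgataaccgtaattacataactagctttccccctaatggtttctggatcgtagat
The 4 windows had no motif in common. The Muc1 window held 1 TATA box, 2 GC boxes and 2 C-rich elements, the last 2 kinds overlapping each other. The Vil1 window held 1 GC box, the Gldn window 1 C-rich element, and the Gkn3 window held none of the 4 motifs. Over 27025 promoters with a window of the same length, 3504 held TATAAA, while 32.9% held GGGCGG, 34.5% CCCTCC and 3.09% TGTTTAC. G and C made up 63.6% of the Gldn window, 62.8% of the Vil1 window, 54.8% of the Muc1 window and 40.8% of the Gkn3 window, beside a median of 52% over all windows. These matches are letters in a window and were not tested as binding sites. Dmbt1, Tff3, Tff2 and Sftpd are named without a sequence.

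The control library held 12428975 counted reads and the knockout library 12176239. CPM is reads scaled to a library of 1000000, after each total was multiplied by the scaling factor given with the processing. On that scale 1 read is 0.0802 CPM in the control and 0.0824 CPM in the knockout. Hnrnpk itself had 2559 control and 1411 knockout reads, a knockout level of 0.567 of the control (95% interval 0.531 to 0.605). The targeted gene thus kept more than 0.5 of its control level and missed the 2-fold size rule used below. Ratios here are of counts scaled by library size, knockout over control. Their intervals are exact Clopper-Pearson intervals for how a gene's reads divide between the libraries. They cover the counting error of reads only, since each comes from 1 pair of counts. Reads without molecular identifiers are not counts of molecules, so error from sampling molecules may not be covered. With 1 library per genotype there is no replicate check, and differences between mice, dissected pieces or preparations are part of every value. A count of 0 in the control allows up to 3 counts, or 0.241 CPM on the library total without its scaling factor. In bulk tissue, more cells of a type and more RNA per cell cannot be told apart.

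Together the 8 genes had 30 control and 1052 knockout reads, or 2.40 and 86.7 CPM. The summed level was 36.1 times as high in the knockout (25.1 to 53.7). Dmbt1 alone supplied 63.1% of the knockout reads. The other 7 genes had 28 and 388 reads, a ratio of 14.3 (9.71 to 21.7). All 8 members had more knockout than control reads, which their choice fixed.

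**Figure D1:**
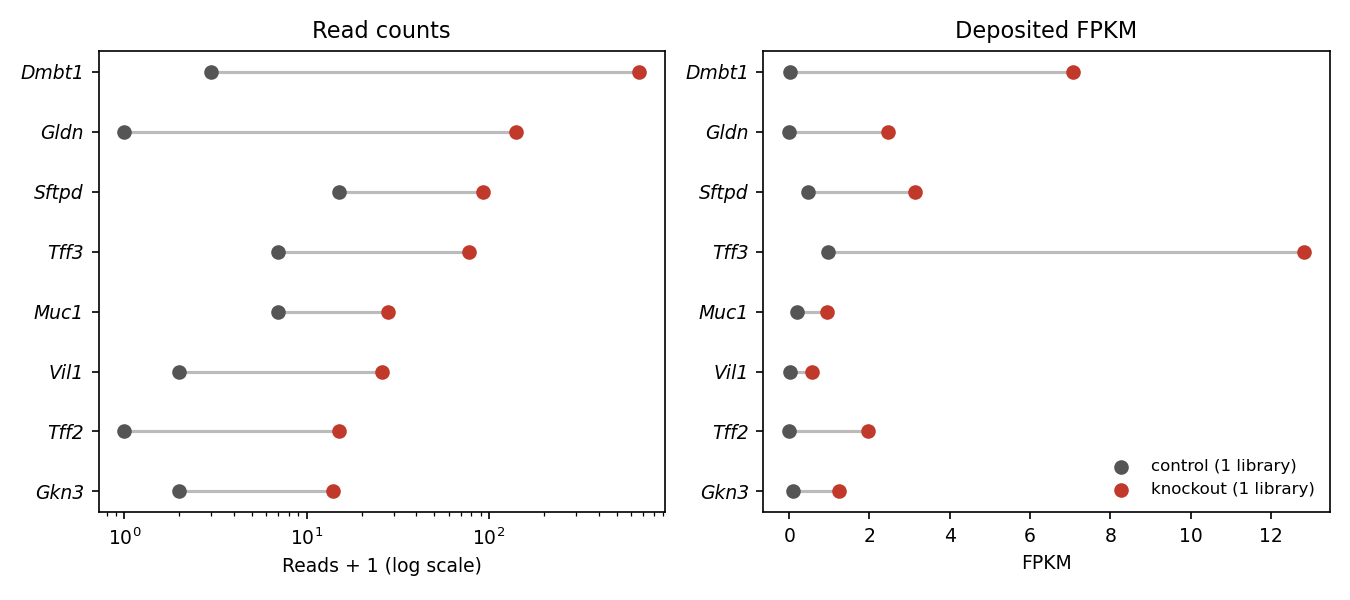
Each gene's level in the 2 libraries, as reads plus 1 on a log axis (left) and as deposited FPKM on a linear axis (right), 1 point per library. By reads Dmbt1 stands highest in the knockout with 664, whereas per length Tff3 is highest with FPKM 12.8 and Dmbt1 follows with 7.07.

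Dmbt1 encodes a large secreted and membrane-bound glycoprotein of scavenger receptor cysteine-rich domains that binds bacteria and surfactant protein D on mucosal surfaces. The gene (ENSMUSG00000047517, mm10 chromosome 7, 131032046 to 131121628, plus strand) had 2 control and 664 knockout reads, or FPKM 0.0208 and 7.07. Its ratio was 341 (94.2 to 2826), and the width of that interval comes from the 2 control reads. The annotated span of Fgfr2, on the opposite strand, covers all of Dmbt1. In the GENCODE annotation of this build 0 bases of Fgfr2 exons fall on Dmbt1 exons. That annotation gives Dmbt1 a different span and 7057 exonic bases, beside a deposited length of 7718 bases. Exon overlap in the annotation that was counted was therefore not tested. Fgfr2 had 287 and 334 reads, a ratio of 1.20 (1.02 to 1.41).

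Sftpd encodes surfactant protein D, a collectin that binds sugars on microbes and is known from lung and other mucosal linings. The gene (ENSMUSG00000021795, chromosome 14, 41172214 to 41185149, minus strand) had 14 control and 92 knockout reads, or FPKM 0.466 and 3.13. Its ratio was 6.76 (3.83 to 12.8). Of the 8 genes it had the most control reads, and it is the member least close to silent in the control. The neighbouring collectin gene Mbl1, 12613 bases away and abundant in both libraries, had 1744 and 2065 reads (1.22-fold, 1.14 to 1.30).

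The trefoil peptides are small, disulfide-rich secreted proteins that are made with mucins and help to close gaps in damaged epithelium. Tff3, the trefoil peptide of intestinal goblet cells (ENSMUSG00000024029, chromosome 17, 31125306 to 31129646, minus strand), had 6 and 77 reads, or FPKM 0.979 and 12.8. Its ratio was 13.2 (5.80 to 37.1), and at a gene length of only 493 bases it reached the highest FPKM of the 8. Tff2, the trefoil peptide of gastric mucous neck cells, lies 11403 bases further on the same strand (ENSMUSG00000024028, chromosome 17, 31141049 to 31144282). It had 0 control and 14 knockout reads, or FPKM 0 and 1.97, which is at least 4.80-fold higher in the knockout against a floor of 3 control counts. With the counting error of its 14 reads included, the lower limit of its interval was 3.41. Tff1, the third trefoil gene and the gastric surface cell form, had 2 and 4 reads, too few to read a direction. Abcg1, a sterol transporter gene 7318 bases from Tff3 on the other side, had 101 and 84 reads (0.855 of the control, 0.633 to 1.15).

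Gkn3, a secreted gastrokine gene of the mouse stomach (ENSMUSG00000030048, chromosome 6, 87383256 to 87388935, minus strand), had 1 control and 13 knockout reads, or FPKM 0.0940 and 1.25. The ratio of 13.4 has an interval from 2.01 to 568, a width that comes from the 1 control read. The other gastrokine genes, Gkn1 and Gkn2, were at 0 in both libraries. Bmp10, 40059 bases from Gkn3, had 61 reads in each library.

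Muc1 encodes a mucin that spans the apical membrane of secretory epithelia. The gene (ENSMUSG00000042784, chromosome 3, 89229057 to 89233381, plus strand) had 6 and 27 reads, or FPKM 0.206 and 0.945. Its ratio of 4.63 (1.87 to 13.7) was the smallest ratio of the 6 members that had a control read. Trim46, on the opposite strand with its 3′ end 796 bases past Muc1, had 1 and 11 reads (11.3-fold, 1.64 to 487), while Mtx1, 1969 bases away on the other side, had 154 and 147. No source used here says whether counting used strand, so reads that run past a gene's end towards a neighbour on the other strand cannot be told apart.

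Vil1 encodes villin, the actin-bundling protein of microvilli in gut, kidney tubule and bile duct epithelium. The gene (ENSMUSG00000026175, chromosome 1, 74409376 to 74435559, plus strand) had 1 and 25 reads, or FPKM 0.0227 and 0.578. The ratio was 25.7 (4.21 to 1056), and per length Vil1 was the lowest of the 8 in the knockout. It shares 49 exonic bases with Usp37 on the opposite strand, which had 167 and 113 reads (0.696 of the control, 0.543 to 0.889). Whether reads of Usp37 were counted for Vil1 was not tested.

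Gldn (ENSMUSG00000046167, chromosome 9, 54286486 to 54341786, plus strand) had 0 control and 140 knockout reads, or FPKM 0 and 2.47. It was at least 48.0-fold higher in the knockout against a floor of 3 control counts, and the lower limit of its counting interval was 38.5. By reads it was second to Dmbt1 among the 8. The antisense gene Gldnos overlaps its span by 15085 bases but shares 0 exonic bases with it. Dmxl2, 23372 bases away, had 607 and 780 reads (1.32-fold, 1.19 to 1.47). Of the genes whose products gliomedin binds at nodes of Ranvier, Nfasc had 6 and 3 reads and Nrcam 0 in both libraries, too few to read a direction.

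Some of the counting intervals lay apart, which concerns the counting of reads and not differences between mice or preparations. The interval of Dmbt1 lay wholly above those of Tff3, Sftpd and Muc1, and the lower limit of Gldn did as well. The intervals of Tff3, Sftpd and Muc1 overlapped one another. Vil1, Gkn3 and Tff2 had 25 knockout reads or fewer, and their ratios are too wide to be placed within this order.

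A gene counted as evaluated if its level reached 20 reads and FPKM 1 in at least 1 library, and it passed the size rule at a ratio of at least 2 or at most 0.5. Of 9563 evaluated genes, 2.53% were higher and 1.13% lower in the knockout. Dmbt1, Gldn, Sftpd and Tff3 were evaluated, and all 4 were past the rule, as their choice implies. Muc1 and Vil1 missed the FPKM minimum, Tff2 and Gkn3 the read minimum. Under a looser rule, a ratio of at least 4 in either direction with 10 reads in the higher library, 1.72% of 12198 genes were higher and 0.656% lower, and all 8 members were among the higher. That rule also takes genes with 0 control reads.

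Genes of the same kind were counted over the whole table: at most 12 control reads, 10 or more knockout reads and a ratio of at least 4. They numbered 183, or 22.6% of the 810 genes near-silent in the control with 10 reads in either library. The mirror pattern, near-silent in the knockout and higher in the control, was met by 74 of 599 genes, or 12.4%. Both shares are shaped by the read minimum, since a gene with fewer than 10 reads in its near-silent library enters only through the other library. Of the members, 7 (all but Sftpd) are among the 183. Ordered by knockout reads within the 183, Dmbt1 ranked 1, Gldn 3 and Tff3 7. Muc1 ranked 43, Vil1 51, Tff2 112 and Gkn3 127. By knockout FPKM, a per-length level, Tff3 ranked 1, Dmbt1 2, Gldn 11, Tff2 14, Gkn3 21, Muc1 31 and Vil1 51.

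**Figure D2:**
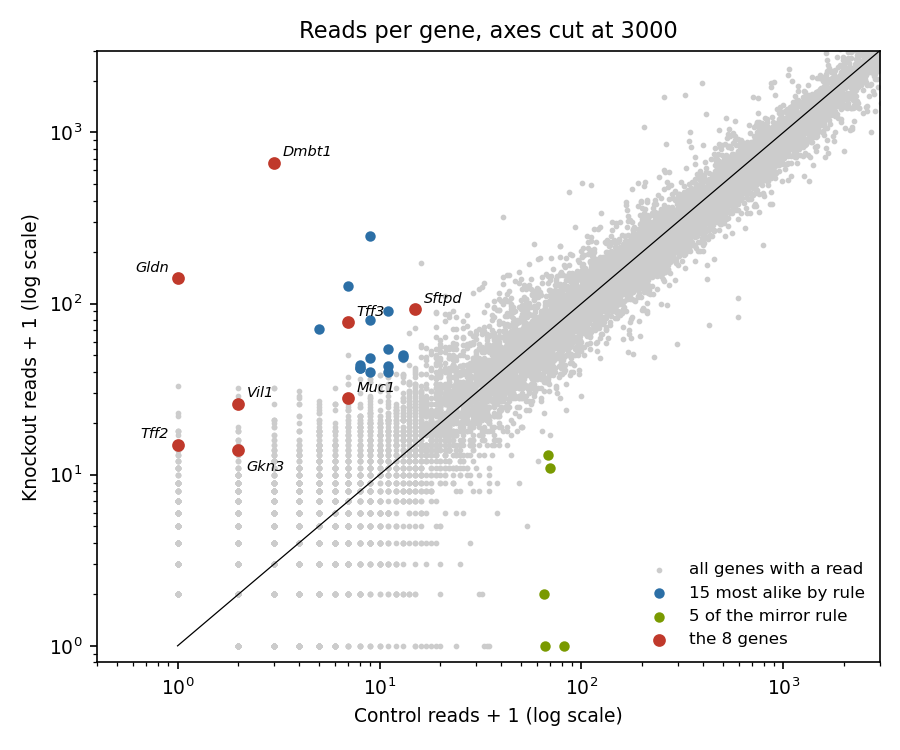
Reads plus 1 of each gene in the control (horizontal, log scale) and the knockout (vertical, log scale), 1 grey point per gene with a read, with the 8 genes in red, the 15 most alike in blue, 5 genes of the mirror pattern in green and the line of equal reads. Dmbt1 (2 and 664 reads) and Gldn (0 and 140) lie farthest from the line on the knockout side.

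The 15 genes most alike, taken as those with the most knockout reads among the 183 once members and predicted genes were left out, were led by Ntrk2, the receptor of brain-derived neurotrophic factor (8 and 248 reads, 31.9-fold, 15.9 to 74.7). Next came Col4a3, a type IV collagen chain of basement membranes (6 and 126 reads, 21.6-fold, 9.65 to 60.0), with its partner chain Col4a4 further down (10 and 53 reads). Epithelial genes among the 15 were Epcam, an adhesion protein (10 and 89 reads), Krt19, the keratin of bile duct cells (4 and 70 reads), Muc6, a gel-forming mucin of stomach and biliary glands (7 and 43 reads), the membrane protease gene St14 (7 and 41), Tspan8 (7 and 41) and the sodium-glucose transporter gene Slc5a1 (10 and 42). Tuba8, Loxl1, Capg, Evc2, Top2a and Rab27b made up the rest, with 39 to 79 knockout reads. Likeness here means the same low control and higher knockout count in 2 libraries and nothing more.

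The mirror pattern held skeletal muscle genes. The 5 with the most control reads were Acta1, the skeletal muscle actin (81 and 0 reads), Cyp2c69 (69 and 10), Cnmd (67 and 12), the fast muscle myosin Myh4 (65 and 0) and the giant muscle protein Ttn (64 and 1). A list of 14 muscle genes, drawn up after these values were seen, had 10 members in the mirror pattern. Its summed reads were 793 in the control and 308 in the knockout, of which Neb, present in both, gave 394 and 302. Apart from Neb, Mylpf (13 and 5 reads) and Ttn, every listed gene had 0 knockout reads. The part of muscle tissue in the other differences was not tested.

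Leaving out the members, the looser 4-fold rule called 2 of 9 olfactomedin domain genes with 10 or more reads in total as higher. On the same basis it took 1 of 2 mucins, 1 of 3 genes of mucus secretion and 1 of 3 alveolar and airway genes. It also took 1 of 5 genes of the villin and gelsolin family and 1 of 10 brush border genes. It took 0 of 2 gastric genes, 0 of 7 collectins and ficolins and 0 of 11 genes with scavenger receptor cysteine-rich domains. Over all genes the rule took 1.72% of 12198 as higher, and each of these lists is small. Several family medians without the members were above that of all genes. Over all 12693 genes with 10 or more reads in total, the median log2 ratio was -0.01, with 0.5 counts added to each library. Of 13 mucin genes, 7 were at 0 in both libraries and 3 had 10 or more reads, namely Muc1, Muc6 (6.32-fold, 2.82 to 16.6) and Muc16 (8 and 3 reads). No mucin was evaluated, and without Muc1 the median log2 ratio of the other 2 was 0.67. Of 15 genes of mucus secretion, 7 were at 0, and the 3 with 10 or more reads had a median log2 ratio of 1.44. Fcgbp, a mucus protein gene, had 1 and 14 reads (14.4-fold, 2.19 to 609), the secretory regulator Creb3l1 8 and 22, and the gastric protease gene Capn8, the sole evaluated member, 89 and 44 (0.508 of the control, just within the rule).

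Among 9 collectin and ficolin genes, 1 of 7 evaluated members was higher, which was Sftpd, and 0 were lower. The median log2 ratio was 0.18 over the 7 with 10 or more reads once Sftpd is left out. Mbl2, a mannose-binding lectin made by hepatocytes, had 2442 and 3732 reads (1.57-fold, 1.49 to 1.66). Sftpa1, the other hydrophilic surfactant protein, went against Sftpd with 34 and 10 reads (0.303 of the control, 0.133 to 0.626). Of 15 genes with scavenger receptor cysteine-rich domains, Dmbt1 was the 1 of 7 evaluated that passed the rule. The median log2 ratio of the 11 others with 10 or more reads was 0.04. Cd163, the haemoglobin scavenger receptor of macrophages, had 718 and 370 reads (0.530 of the control) and Marco, a macrophage receptor for bacteria, 35 and 65.

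In the villin and gelsolin family, 2 of 4 evaluated genes were higher and 0 lower. These were the actin-severing gene Gsn (262 and 851 reads, 3.34-fold, 2.91 to 3.85) and the capping protein gene Capg (12 and 48 reads, 4.11-fold, 2.15 to 8.51), and the villin-like gene Vill had 12 and 20 reads. The median log2 ratio of the 5 family genes other than Vil1 with 10 or more reads was 0.75. Of the 17 brush border genes, 0 of 7 evaluated passed the rule. Without Vil1, the median log2 ratio of the 10 with 10 or more reads was 0.18. The microvillar bundling gene Espn had 2 and 13 reads (6.69-fold, 1.51 to 61.0), Pls1 10 and 20, the microvillar adhesion gene Cdhr5 672 and 1099 and the abundant scaffold gene Slc9a3r1 3641 and 3389. Vil1 and Espn, both low, were thus the only brush border genes past 4-fold with 10 reads.

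Of 13 olfactomedin domain genes, the family of Gldn, 2 of 5 evaluated were higher and 0 lower. These were Gldn and Olfml3 (38 and 91 reads, 2.46-fold, 1.67 to 3.70). The crypt gene Olfm4 had 2 and 20 reads (10.3-fold, 2.50 to 90.8) and Olfml2b 0 and 11. Leaving out Gldn, 9 had 10 or more reads, with a median log2 ratio of 0.42. Of 10 genes of the node of Ranvier, 0 were evaluated, and the 4 with 10 or more reads had a median log2 ratio of 0.59. Scn8a, a sodium channel of the node, had 4 and 19 reads (4.89-fold, 1.62 to 19.7), and Ank3, the ankyrin that anchors it, had 169 and 301 (1.83-fold, 1.51 to 2.22).

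Among 22 genes of epithelial innate defence, 1 of 4 evaluated was higher, Lcn2, an iron-scavenging acute phase gene (83 and 183 reads, 2.27-fold, 1.74 to 2.98), and 0 were lower. Wfdc15b had 0 and 11 reads. Pigr, the receptor that carries IgA into bile, was abundant and close to equal with 18123 and 16509 reads, and 9 genes, among them Reg3a, Reg3b and Camp, were at 0. Of 11 genes whose products bind those of the members, 1 of 7 evaluated was higher, Mfap4, a matrix protein that binds surfactant protein D (13 and 43 reads, 3.40-fold, 1.80 to 6.90). Egfr, a partner of Muc1, had 18133 and 13233 reads (0.751 of the control). Cxcr4, reported as a Tff2 receptor, had 12 and 20.

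Transcription factors and cytokine receptors linked to mucosal genes showed medians near that of all genes. Of 20 epithelial transcription factor genes, 1 of 11 evaluated was higher, Sox4 (18 and 63 reads, 3.60-fold, 2.10 to 6.46), and 0 were lower. Over 14 of them the median log2 ratio was -0.01, with 7 above 0 and 7 below. Most of those below, such as Hnf4a (12188 and 10053 reads), had many control reads and were far from silent. The epithelial ETS factors Ehf (12 and 46 reads, 3.94-fold, 2.06 to 8.18) and Elf3 (2 and 10 reads) were low in the control, as the members were. The goblet and intestinal regulators Atoh1, Cdx1 and Cdx2 were at 0 in both libraries. Of 19 cytokine and growth factor inputs, 1 of 15 evaluated was higher, the interleukin-22 receptor gene Il22ra1 (31 and 65 reads, 2.16-fold, 1.39 to 3.42), and 0 were lower. Their median log2 ratio was -0.04 over 17. Il6ra had 1782 and 888 reads (0.513 of the control, just within the rule) and Il33 15 and 30.

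Markers of cholangiocytes and ductular cells moved with the 8 genes. Of 19, 5 of 9 evaluated were higher and 0 lower, and 15 of the 16 with 10 or more reads had a ratio above 1. The median log2 ratio of those 16 was 2.02. The summed level of the list was 88.3 CPM in the control and 235 in the knockout. Spp1 alone gave 204 of its 1102 control reads and 1078 of its 2856 knockout reads (5.44-fold, 4.68 to 6.34). Krt19 had 4 and 70 reads (18.0-fold, 6.72 to 67.9), Cd24a 15 and 171 (11.7-fold, 6.91 to 21.4), Epcam 10 and 89 (9.15-fold, 4.75 to 19.7) and Cldn7, a tight junction gene, 1 and 15 (15.4-fold, 2.37 to 649). The intervals of Tff3, Sftpd and Muc1 overlapped those of Krt19, Cd24a and Epcam. The interval of Dmbt1 lay above all 3 of those intervals, and the lower limit of Gldn lay above those of Cd24a and Epcam but inside that of Krt19. Per length, knockout FPKM was 12.8 for Tff3 and 7.07 for Dmbt1, beside 5.44 for Cd24a, 3.33 for Epcam and 3.10 for Krt19. Spp1 was far above them at 53.7. The part of ductular cells in the members' levels was not tested.

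**Figure D3:**
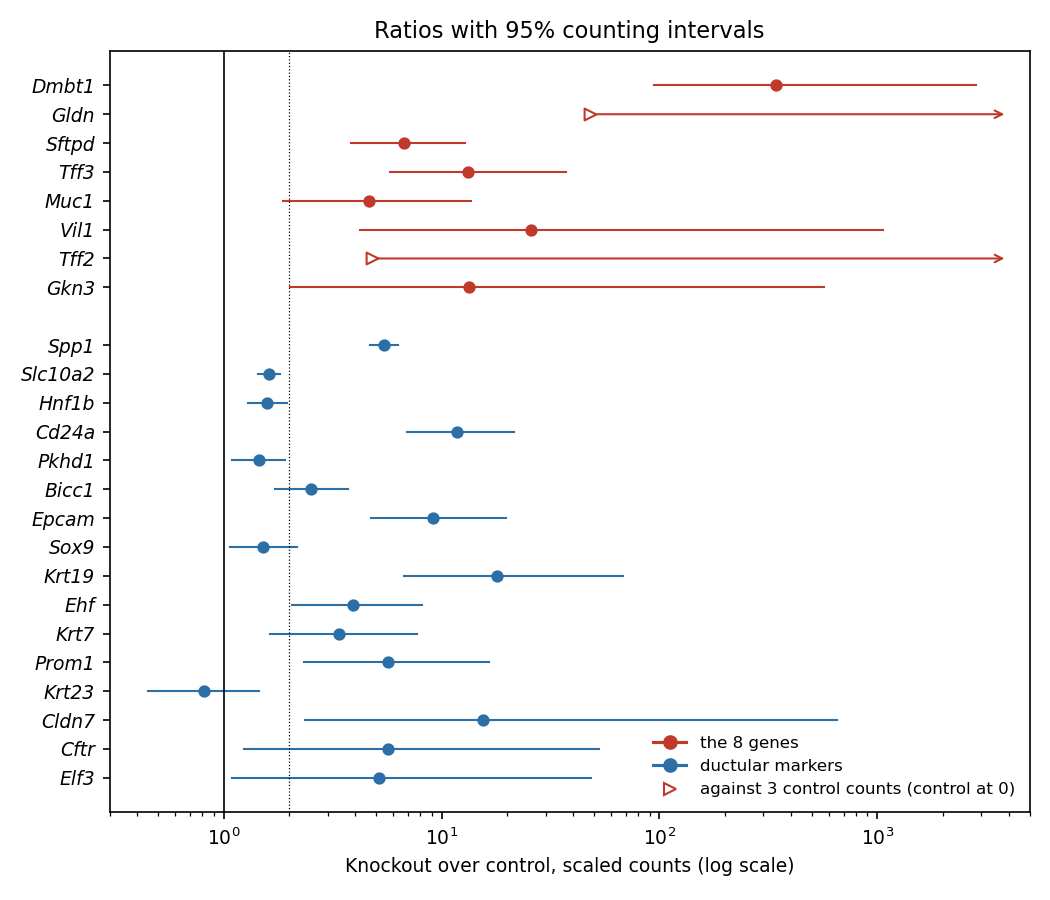
Knockout over control ratio of scaled counts on a log axis, with 95% counting intervals, for the 8 genes (red) and the 16 ductular markers with 10 or more reads (blue). The solid line marks a ratio of 1, the dotted line 2, and open triangles with arrows mark ratios against a floor of 3 counts for genes with 0 control reads. The interval of Dmbt1 (94.2 to 2826) lies above those of Krt19 (6.72 to 67.9), Cd24a and Epcam.

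Markers of the other tissues these genes are known from were at 0 in both libraries for many genes, though not for all, and their part in the members' levels was not tested. For gastric epithelium, 7 of 12 markers were at 0 in both libraries, including Gkn1, Gkn2, Muc5ac, Gast and Cblif. The list summed to 1.68 and 5.19 CPM, and Muc6 gave 7 and 43 of its 21 and 63 reads. A wider list of 14 gastric genes had 0 evaluated members; beside Gkn3, its leading genes were the proton pump subunit gene Atp4a (10 and 15 reads) and the protease gene Ctse (8 and 13). Of 12 intestinal markers 8 were at 0, including Cdx1, Cdx2, Sis, Lct and Krt20, and the sum of 46.8 and 40.0 CPM was mostly Fabp2, which liver also expresses (531 and 375 reads). The stem cell and pericentral hepatocyte gene Lgr5, which is on that list, had 51 and 108 reads. Of 14 pancreatic markers 11 were at 0, and Cela1 (198 and 138 reads) gave nearly all reads of the list, which summed to 16.3 and 11.7 CPM. For lung epithelium, Sftpc, Scgb1a1, Scgb3a2 and Nkx2-1 were at 0 and the sum was 3.37 and 3.87 CPM. Sftpa1 gave 34 of the list's 42 control reads and 10 of its 47 knockout reads. The list's other genes include Foxj1, the regulator of motile cilia, with 1 and 31 reads (31.9-fold, 5.31 to 1299). In the wider list of 12 alveolar and airway genes, the sole evaluated member was the lipid transporter gene Abca3 (681 and 718 reads), within the rule.

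For Schwann cells and nerve, the tissue in which gliomedin is best known, all 10 markers had few reads, and the list summed to 2.40 and 5.03 CPM. Mbp, the myelin basic protein gene, had 10 and 36 reads (3.70-fold, 1.80 to 8.37), whereas Cdh19 had 6 and 5. The whole list had 30 control and 61 knockout reads, beside 0 and 140 of Gldn. The part of nerve in the level of Gldn was not tested. Mesothelial markers summed to 4.41 and 4.86 CPM, with Upk3b at 17 and 7 reads and Gpm6a at 15 and 29. Adipocyte markers summed to 19.5 and 19.0, with Cidec lower (132 and 58 reads) and Cfd higher (8 and 21). The 10 hepatocyte markers were all within the rule, from Cps1 at a log2 ratio of -0.28 to Serpina1a at 0.53, with Alb at 0.00.

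**Figure D4:**
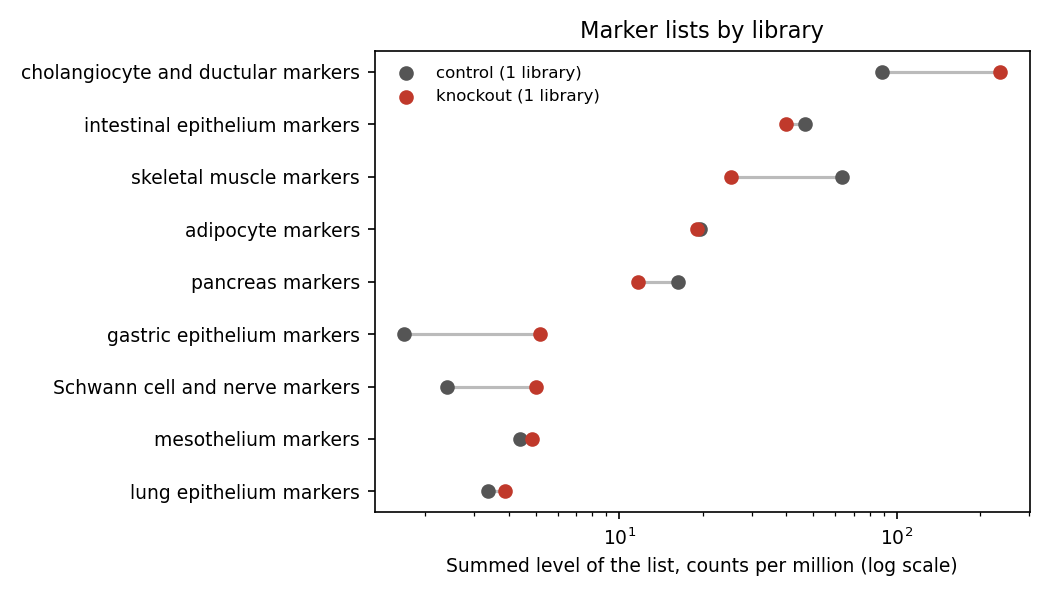
Summed level of each marker list in CPM (reads scaled to a library of 1000000) on a log axis, 1 point per library, control in grey and knockout in red, with hepatocyte markers left out for scale. Ductular markers went from 88.3 to 235, of which Spp1 gave 16.4 and 88.9. Skeletal muscle markers, a list added after the values were seen, went from 63.6 to 25.4. Lung markers were at 3.37 and 3.87, with Sftpa1 lower and Foxj1 higher in the knockout.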

How the data were processed

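The authors deposited 1 table of 21936 genes holding whole-number read counts and FPKM values of both libraries, per the file headers. Bowtie2 2.4.2 and mm10 are named in the submitters' processing notes. The counter, annotation, strand setting and treatment of multiply mapping reads are not stated in the sources used here. The deposited FPKM values equal count over gene length and column total for all 21936 genes in each library, to a relative difference of at most 1e-06. Table columns are marked WT and KO and were matched to the control and knockout labels by those marks.

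From the deposited counts, library totals were multiplied by TMM factors of edgeR 4.0.16 in R 4.3.3 (1.004 for the control and 0.996 for the knockout). Ratios used Python 3.11.15 with numpy 2.4.6, pandas 2.3.3 and scipy 1.17.1, and figures matplotlib 3.10.9. Size factors of DESeq2 1.42.0 served as an alternative. Log2 ratios have 0.5 added to each scaled count. A single library per genotype allowed no test across samples, so size rules took its place. The calculation was tested on simulated counts that varied by counting error only. The changed genes in it were expected at 10 or more control reads, so it does not cover members with fewer. The members, 15 gene lists and 9 marker lists were chosen with earlier results of these data known, and a muscle list was added afterwards. Named genes were the members, up to 4 genes per list with the largest log2 ratios among those with 10 or more reads, each list's most abundant gene, the 15 most alike, 5 of the mirror pattern and the members' neighbours. Other genes named were chosen after their values were seen, to describe their lists. List members at 0 are named as such. Some genes that this rule takes are not reported here.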

Additional observations from a re-analysis of the deposited data

How the results depend on the processing

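The log2 ratio of each of the 8 genes stayed positive and inside its own counting interval under every alternative run. These runs were 3 other scalings, pseudocounts of 0.1, 1 and 3, a correction for gene length and the deposited FPKM. Gldn and Tff2 have no FPKM ratio, being listed at 0 in the control. Because the genes were picked for higher knockout counts and several intervals are very wide, this outcome was likely beforehand and lends the ratios no support. The number of the 8 past the size rule was 4, and it was 8 with a minimum of 10 counts and no FPKM minimum and 8 with a minimum of 1 count. Over all genes, 242 were higher and 108 lower. These numbers became 730 and 287 with 10 counts and no FPKM minimum, 2054 and 995 with 1 count, 47 and 16 at 4-fold, and 589 and 514 at 1.5-fold. The 183 genes gained from near silence became 121 at 3 control reads or fewer, 442 at 2-fold, 80 at 8-fold and 73 with 20 reads or more. The 74 of the mirror pattern became 170 at 2-fold, 40 at 8-fold and 23 with 20 reads or more. These shifts follow from the thresholds, which admit more or fewer genes. No paired analysis was possible because each genotype has 1 library. For the same reason no library could be left out. Depth limits Tff2, Gkn3, Vil1 and Muc1 most, at 13 to 27 knockout reads.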
